A study of Mus musculus with 8 samples.

Results

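The 36 genes described here encode liver-made coagulation factors and complement components. They were taken by symbol from the deposited gene table, in which all 36 were found among 25078 entries. Of the 36, 16 belong to coagulation and 20 to complement, and both systems are described apart. All 36 also passed the filter on low counts, which left 14438 genes to test. Messenger RNA was sequenced from the livers of 8 male mice of strain C57/BL6, each fed a Western-style diet rich in fat, fructose and cholesterol for 25 weeks, a regimen that produces fatty liver. Of these, 3 mice are those whose genotype label reads Midn hemizygotes and whose titles read Het, called het-labelled here. They were set against 5 wild-type mice. The knockout was global, and the submitters studied mice with 1 intact copy because most embryos without any died. The labels give neither the age at the start of feeding nor the deleted part of Midn, and no livers on a normal diet were analysed here, so all values are those of livers under dietary load.

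Coagulation is a cascade of serine proteases. Hepatocytes secrete most of its proteins as inactive precursors, and the cascade ends when thrombin, cut from prothrombin, turns soluble fibrinogen into fibrin. Complement is a parallel cascade of plasma proteins that tags and perforates microbes; its classical, lectin and alternative routes meet at the cleavage of C3 and finish in a pore built from the terminal components. The liver is the main source of both sets, and several of the genes, the fibrinogen chains and C3 among them, are known acute-phase genes that respond to interleukin-6.

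Total counts were 17508221 to 24916239 per het-labelled library and 18687680 to 21064473 per wild-type library. Rpph1, a structural RNA of ribonuclease P, took 0.229 to 0.399% of counts in the het-labelled libraries and 0.304 to 1.06% in the wild-type ones. The wild-type libraries parted on it, with 0.673 to 1.06% in libraries 2, 4 and 5 and 0.304 to 0.331% in libraries 1 and 3, so results that turn on this split are also given against each part. Midn levels overlapped between the genotypes, at 60.4, 39.1 and 51.7 CPM in the het-labelled livers and 68.7, 39.8, 71.5, 41.7 and 29.3 CPM in the wild-type livers (numbered 1 to 3 and 1 to 5 in accession order). Since the deleted part is not given, these counts do not check the genotype labels, and directions below are those of the libraries labelled heterozygous. CPM, a gene's counts scaled to a common library size by TMM, compares 1 gene between livers, and the authors' RPKM, which is also per kilobase of exon, compares genes.

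These genes are among the most abundant liver messages. By mean RPKM over the 8 livers, 4 members stood in the top 100 of all genes and 26 in the top 1000. The fibrinogen chain gene Fgb led with 1738 ± 259 RPKM in het-labelled and 1574 ± 253 RPKM in wild-type livers (SD, n = 3 and n = 5). C3 followed with 1183 ± 175 RPKM in het-labelled and 965 ± 357 RPKM in wild-type livers. The least abundant were F11 with 22.9 ± 6.30 RPKM in het-labelled and 13.02 ± 3.14 RPKM in wild-type livers, Cfp with 16.5 ± 2.19 RPKM in het-labelled and 21.1 ± 9.10 RPKM in wild-type livers and F7 with 26.5 ± 8.66 RPKM in het-labelled and 17.4 ± 3.44 RPKM in wild-type livers. All members together took 2.84 to 3.38% of counts in the het-labelled libraries and 2.02 to 3.27% in the wild-type ones.

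Most members leaned higher in the het-labelled livers, but none passed the test. In edgeR's quasi-likelihood fit across 14438 genes with Benjamini-Hochberg adjustment, 0 of 36 members and 0% of all genes passed at 0.05 in either direction, and the smallest adjusted p of a member was 0.259. With an unadjusted p below 0.05, 6 of 16 coagulation members (37.5%) and 7 of 20 complement members (35.0%) lay on the higher side, and 0 on the lower. Over all genes the same rule gave 10.3% higher (1487 genes) and 5.43% lower (784 genes). The median log2 fold change was 0.42 over the coagulation members and 0.36 over the complement members, beside 0.00 over all genes tested, and 29 of the 36 values were above 0. DESeq2 called 1 member, C6, where it called 0.694% of all genes higher and 0.528% lower.

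The lean rested largely on 2 of the 3 het-labelled livers. Of the 36 members, 26 had their highest CPM of all 8 livers in het-labelled library 1, 1 in het-labelled library 3 and 0 in het-labelled library 2. The mean of centred log2 CPM over the coagulation members was 0.49, −0.10 and 0.31 in het-labelled libraries 1, 2 and 3, and lay between −0.33 and −0.05 in the wild-type libraries. The complement members gave 0.48, −0.01 and 0.24, against −0.44 to 0.06. Het-labelled library 2 lay inside the wild-type range for both systems. Without het-labelled library 1 the unadjusted count was 1 of 16 and 1 of 20, where 3.90% of all genes were higher; without het-labelled library 2 it was 9 of 16 and 10 of 20, where 13.4% were higher. Leaving out het-labelled library 3 gave 3 and 4, where 4.29% of all genes were higher. Leaving out wild-type library 2 gave 2 and 4, where 5.76% were higher, and wild-type library 5 gave 4 and 4, where 8.43% were higher. Scaling by library size alone, which moved the median of all genes to −0.18, gave 0 and 2, where 2.96% of all genes were higher and 8.30% lower, with a coagulation median of 0.22, or 0.40 above that of all genes. The lowest values were mostly in wild-type library 3, for 16 members, and wild-type library 5, for 13.

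General hepatocyte messages leaned the same way in the same livers. Of 9 hepatocyte markers measured, 2 (22.2%) had an unadjusted p below 0.05 on the higher side and 0 on the lower. Over all genes 10.3% were higher and 5.43% lower by that rule. The median log2 fold change of the markers was 0.35. Their summed level was 97305, 62531 and 89406 CPM in het-labelled libraries 1, 2 and 3, against 52314 to 70138 CPM in the wild-type libraries, so libraries 1 and 3 stood above wild type and library 2 within it. The summed level of 7 stellate cell markers was 784, 1380.3 and 577 CPM, against 977 to 1569 CPM, and that of 5 bile duct markers 146, 735 and 157 CPM, against 404 to 869 CPM. Het-labelled library 2 was the highest of its group on both. In whole liver, fewer cells of a type and less RNA per cell cannot be told apart, and the part of liver make-up in the members' values was not tested.

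**Figure D1:**
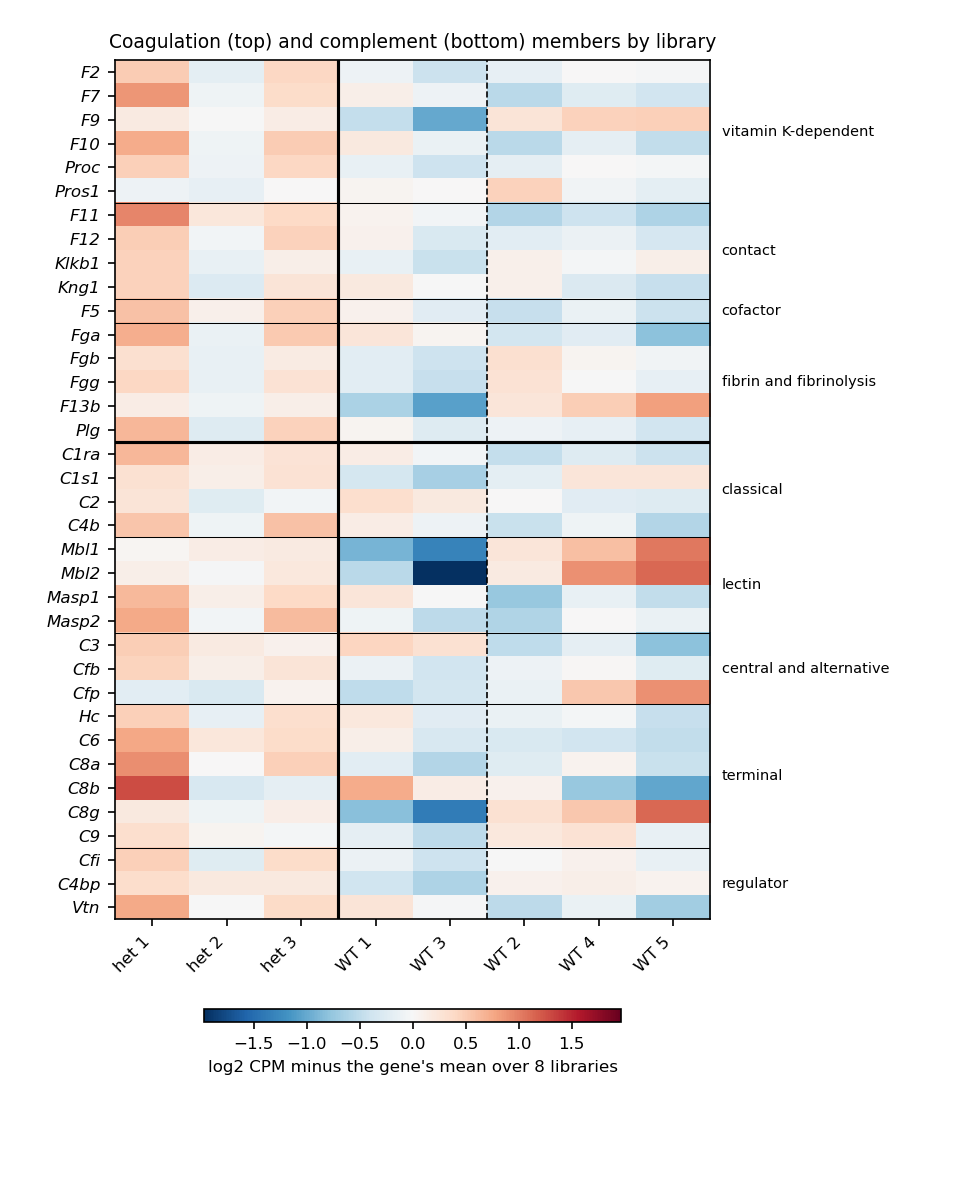
Log2 CPM of each of the 36 members (rows, grouped by role) minus its mean over the 8 libraries (columns), red above and blue below the mean; the solid vertical line divides het-labelled from wild-type livers and the dashed one divides wild-type libraries 1 and 3 from 2, 4 and 5. Het-labelled library 1 holds the highest value of 26 members, and Mbl1, Mbl2, C8g, F9 and F13b are lowest in wild-type libraries 1 and 3.

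Among the vitamin K-dependent factors, whose glutamate residues are carboxylated so that they bind phospholipid through calcium, 3 of 6 were higher at an unadjusted p under 0.05. That is 50%, where 10.3% of all genes were higher by the same rule. F7 encodes factor VII, which starts the cascade together with tissue factor. It had 69.4, 35.7 and 48.5 CPM in het-labelled libraries 1, 2 and 3, against 41.1, 26.2, 35.4, 32.0 and 29.1 CPM in wild-type libraries 1 to 5, the order kept below. Only het-labelled library 2 fell inside the wild-type range, and the log2 fold change came to 0.64 (SE 0.23; edgeR adjusted p = 0.268). F10, which lies 1503 bases downstream of F7 on chromosome 8 on the same strand, encodes factor X, the protease that activates prothrombin. Its values were 265, 150.3 and 226 CPM in het-labelled livers, against 184, 111, 145, 141 and 114 CPM in wild-type livers, with a log2 fold change of 0.62 (SE 0.23; edgeR adjusted p = 0.274). The neighbours had the same order of livers within the het-labelled group, and in both wild-type library 1 was the highest of its group. Members on other chromosomes, F5, Plg and Vtn among them, had both traits too, so neither is particular to this pair.

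Prothrombin itself, F2, stood at 1366, 852 and 1291 CPM in het-labelled livers, against 903, 870.4, 723, 974 and 956 CPM in wild-type livers (log2 fold change 0.40, SE 0.21, edgeR adjusted p = 0.367). Het-labelled libraries 1 and 3 were above the wild-type range, and library 2 was inside it. Proc, the precursor of the anticoagulant protease protein C, had 302, 204 and 291 CPM in het-labelled livers, against 197, 193, 164, 219 and 212 CPM in wild-type livers (log2 fold change 0.43, SE 0.18, edgeR adjusted p = 0.3). Its cofactor gene Pros1, protein S, went the other way in sign at 119.9, 115 and 129.8 CPM in het-labelled livers, against 135, 177, 129, 124 and 113 CPM in wild-type livers, and its groups overlapped fully (log2 fold change −0.16, SE 0.17, edgeR adjusted p = 0.63). F9, the gene of factor IX, which is lacking in haemophilia B, had 379.7, 336 and 373 CPM in het-labelled livers, against 244, 401, 168, 462 and 468 CPM in wild-type livers. Its het-labelled livers lay close together in the middle of a wide wild-type spread, and the log2 fold change came to 0.06 (SE 0.33; edgeR adjusted p = 0.933).

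Contact factors start clotting on foreign surfaces. F11, encoding factor XI, had the largest log2 fold change of all 36 members, 0.85 (SE 0.22; edgeR adjusted p = 0.259). It had 70.6, 42.3 and 47.7 CPM in het-labelled livers, against 38.0, 24.3, 34.9, 27.4 and 23.7 CPM in wild-type livers. All 3 het-labelled livers were above all 5 wild-type livers, although het-labelled library 2 exceeded wild-type library 1 by little. F12, the gene of factor XII, stood at 350.0, 241 and 343 CPM in het-labelled livers, against 265, 217, 205, 231 and 200.002 CPM in wild-type livers (log2 fold change 0.48, SE 0.18, edgeR adjusted p = 0.278), and only het-labelled library 2 was inside the wild-type range. Klkb1, the plasma prekallikrein gene next to F11 (4657 bases between them), had 422, 278 and 335 CPM in het-labelled livers, against 278, 329.7, 227, 300.1 and 333 CPM in wild-type livers. Its groups overlapped, with a log2 fold change of 0.23 (SE 0.20; edgeR adjusted p = 0.547), smaller than that of its neighbour. Kng1, which encodes the kininogen that releases bradykinin, had 1815, 1098 and 1572 CPM in het-labelled livers, against 1512, 1414, 1309, 1086 and 964 CPM in wild-type livers (log2 fold change 0.25, SE 0.24, edgeR adjusted p = 0.584), and het-labelled library 2 was above only wild-type libraries 4 and 5.

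F5 encodes factor V, the cofactor that speeds prothrombin activation by factor Xa. It had 1297, 929 and 1197 CPM in het-labelled livers, against 917, 637, 744, 789.7 and 651 CPM in wild-type livers. The groups did not overlap, though het-labelled library 2 and wild-type library 1 were nearly level, and the log2 fold change came to 0.61 (SE 0.20; edgeR adjusted p = 0.265).

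Fibrinogen is a hexamer of paired alpha, beta and gamma chains, encoded by Fga, Fgb and Fgg, which sit together on chromosome 3, with 11097 bases between Fgg and Fga and 8629 between Fga and Fgb. None of the 5 genes of fibrin and its removal passed at an unadjusted p under 0.05. By that rule 10.3% of all genes were higher and 5.43% lower. Fga had 3067, 1693 and 2649 CPM in het-labelled livers, against 2203, 1454, 1926, 1599 and 1067 CPM in wild-type livers (log2 fold change 0.58, SE 0.29, edgeR adjusted p = 0.348). Fgb had 3517, 2577 and 3173 CPM in het-labelled livers, against 2451, 3526, 2136, 2936 and 2692 CPM in wild-type livers (log2 fold change 0.17, SE 0.23, edgeR adjusted p = 0.699), and Fgg had 2664, 1805 and 2427 CPM in het-labelled livers, against 1739, 2436, 1471, 1987 and 1796 CPM in wild-type livers (log2 fold change 0.29, SE 0.23, edgeR adjusted p = 0.529). The beta and gamma chain genes followed each other closely over the livers, while the alpha chain gene did not. In RPKM the ratio of Fgb to Fgg was 1.64, 1.77 and 1.62 in the het-labelled livers, against 1.75, 1.79, 1.80, 1.83 and 1.86 in the wild-type livers. The ratio of Fga to Fgg was 0.72, 0.59 and 0.69, against 0.80, 0.38, 0.82, 0.51 and 0.37, so that wild-type libraries 2, 4 and 5 had the lowest alpha chain share of all 8 livers.

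**Figure D2:**
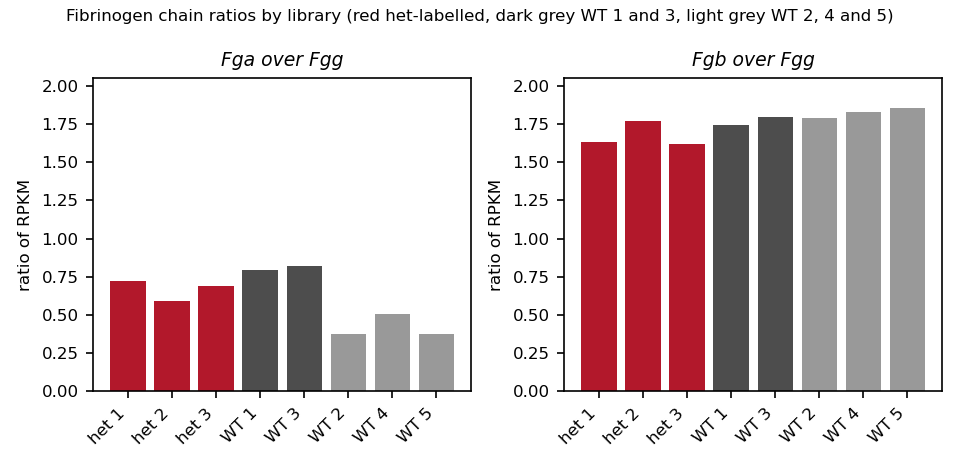
Ratio of deposited RPKM of Fga to Fgg (left) and of Fgb to Fgg (right) in each liver, with het-labelled livers in red, wild-type livers 1 and 3 in dark grey and wild-type livers 2, 4 and 5 in light grey. The Fgb ratio stays between 1.62 and 1.86, whereas the Fga ratio spans 0.37 to 0.82 and is lowest in wild-type libraries 5, 2 and 4.

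The promoters of the 3 chain genes are shown because the chains enter the protein in equal number while their messages did not keep 1 ratio. Sequences are RefSeq's, build GRCm38.p6, from 250 bases before to 50 after the gene start, written 5′ to 3′ on the gene's strand; the windows are chr3:83025903-83026202 (plus) for Fga, chr3:83049814-83050113 (minus) for Fgb and chr3:83007474-83007773 (plus) for Fgg. Capitals mark matches on either strand to the motif GTTAAT, the STAT motif TTCNNNGAA and the C/EBP motif TTGCNNAA.
Fga: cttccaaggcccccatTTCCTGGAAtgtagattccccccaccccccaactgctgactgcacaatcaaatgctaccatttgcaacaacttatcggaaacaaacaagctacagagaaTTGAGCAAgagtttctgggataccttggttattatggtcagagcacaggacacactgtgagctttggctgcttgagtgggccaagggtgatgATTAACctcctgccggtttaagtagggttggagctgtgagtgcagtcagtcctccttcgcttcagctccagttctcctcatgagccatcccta
Fgb: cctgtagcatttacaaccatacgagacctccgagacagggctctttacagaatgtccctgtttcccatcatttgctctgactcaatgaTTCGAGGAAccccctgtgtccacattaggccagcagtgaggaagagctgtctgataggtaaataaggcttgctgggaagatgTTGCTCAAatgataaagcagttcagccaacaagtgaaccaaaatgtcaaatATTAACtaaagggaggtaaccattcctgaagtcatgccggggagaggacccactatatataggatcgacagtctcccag
Fgg: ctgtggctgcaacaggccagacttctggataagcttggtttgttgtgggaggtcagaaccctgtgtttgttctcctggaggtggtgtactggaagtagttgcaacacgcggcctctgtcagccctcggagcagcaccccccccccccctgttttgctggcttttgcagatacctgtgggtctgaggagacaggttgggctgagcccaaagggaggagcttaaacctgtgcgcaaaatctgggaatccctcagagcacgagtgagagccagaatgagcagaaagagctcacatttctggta
Fga and Fgb each held 1 match to all 3 motifs in the same order from the far end, STAT, C/EBP and then GTTAAT, whereas the Fgg window held 0. Any link between these letters and the chain ratios was not tested. The Fga ratio parted with wild-type libraries 1 and 3 against 2, 4 and 5, a split that also moved with exon length, as given below. Exon length is 3360 bases for Fga, 1705 for Fgb and 2112 for Fgg, and its part was not tested.

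F13b, the carrier subunit of the fibrin-crosslinking factor XIII, had 335, 286 and 328 CPM in het-labelled livers, against 198, 360.4, 145, 423 and 530.3 CPM in wild-type livers. The het-labelled livers were close to each other and the wild-type livers spread on both sides of them (log2 fold change −0.07, SE 0.39, edgeR adjusted p = 0.933). Plg encodes plasminogen, which dissolves fibrin once activated. It stood at 2173, 1162 and 1896 CPM in het-labelled livers, against 1433, 1287, 1163, 1243 and 1067 CPM in wild-type livers (log2 fold change 0.49, SE 0.23, edgeR adjusted p = 0.338), with het-labelled library 2 below 4 of the 5 wild-type livers and libraries 1 and 3 above all of them.

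**Figure D3:**
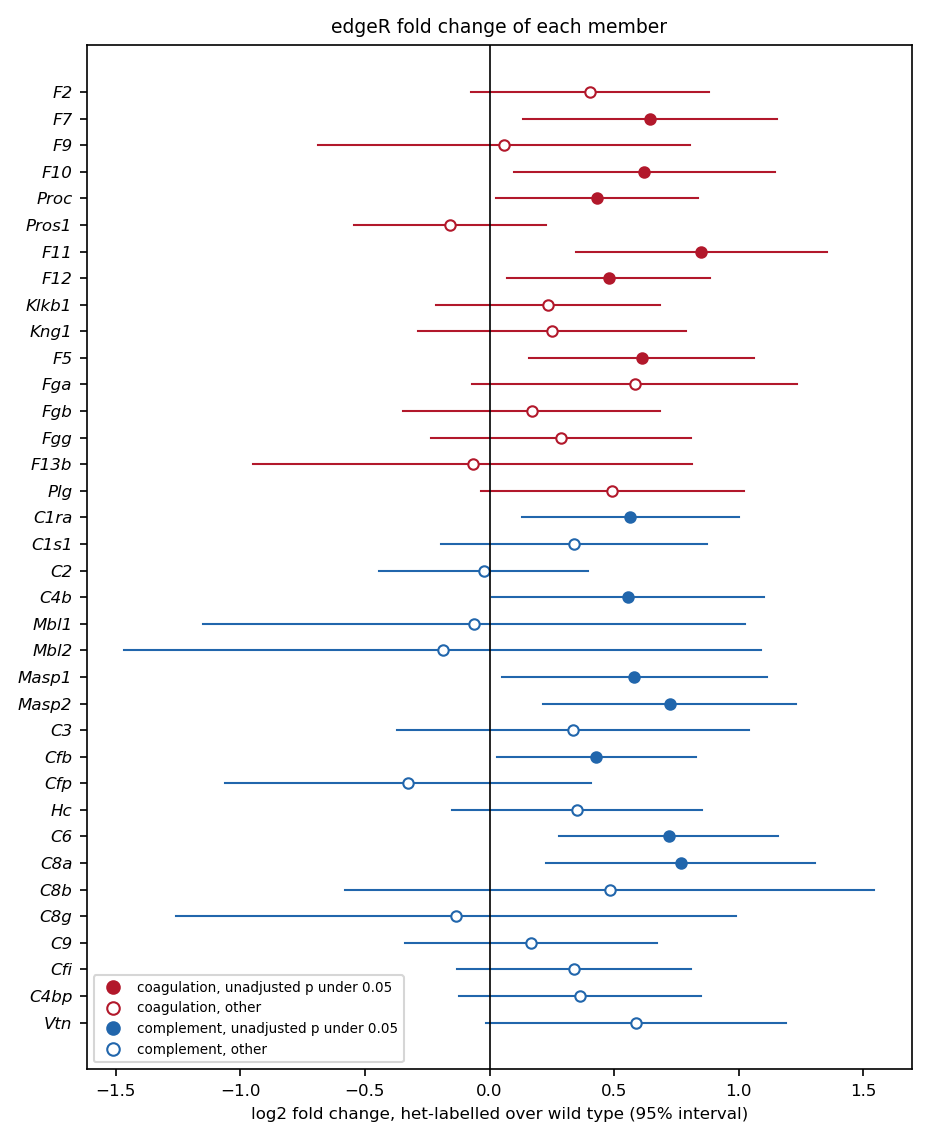
Log2 fold change of each member (het-labelled over wild type, edgeR) with its 95% interval, coagulation in red and complement in blue; filled points had an unadjusted p under 0.05. Values run from −0.33 for Cfp to 0.85 for F11, and 29 of 36 points lie to the right of 0.

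In the classical route of complement, C1r and C1s are the proteases of the C1 complex, and C4 and C2 are what C1s cuts. C1ra had 243, 171 and 186 CPM in het-labelled livers, against 170.2, 112, 149, 130.1 and 115 CPM in wild-type livers. The groups did not overlap, by a margin of less than 1 CPM between het-labelled library 2 and wild-type library 1, and the log2 fold change came to 0.56 (SE 0.19; edgeR adjusted p = 0.268). C1s1, which neighbours C1ra on chromosome 6, had 839, 739.6 and 834 CPM in het-labelled livers, against 539, 596, 433, 808 and 803 CPM in wild-type livers (log2 fold change 0.34, SE 0.24, edgeR adjusted p = 0.476); wild-type libraries 4 and 5 reached into the het-labelled range. C2 differed by −0.02 (SE 0.19; edgeR adjusted p = 0.953) on the log2 scale, with 121, 86.5 and 97.8 CPM in het-labelled livers, against 128, 102, 116, 87.0 and 85.0 CPM in wild-type livers, while Cfb, only 88 bases away on chromosome 17, did not share its values. C4b stood at 1860.2, 1199 and 1889 CPM in het-labelled livers, against 1415, 945, 1191, 1207 and 856 CPM in wild-type livers (log2 fold change 0.55, SE 0.24, edgeR adjusted p = 0.313), and 2 of 3 het-labelled livers were above wild type.

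C1ra, C1s1, C4b and Kng1 have near-identical copies, among which reads could be divided. C1rb had 0 to 6 counts and C1s2 0 to 9 counts per library, so these copies took few reads. Kng2 had 286, 246 and 279 CPM in het-labelled livers, against 267, 344, 219, 259 and 271 CPM in wild-type livers, close to level between the groups. C4a, the copy of C4b known in mice as sex-limited protein, differed more than C4b itself. It had 242, 77.6 and 242 CPM in het-labelled livers, against 59.5, 35.5, 30.1, 104 and 56.3 CPM in wild-type livers, a log2 fold change of 1.72 (SE 0.46; edgeR adjusted p = 0.259), with DESeq2 giving an adjusted p of 0.0380. Het-labelled library 2 lay inside the wild-type range there, and libraries 1 and 3 were above all 5 wild-type livers.

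The lectin route recognises microbial sugars through mannose-binding lectins, whose proteases are Masp1 and Masp2. The proteases had an unadjusted p below 0.05 on the higher side, and the lectins did not. Masp2, which cuts C4 and C2, had 304, 176 and 281 CPM in het-labelled livers, against 171, 121, 127, 183 and 167 CPM in wild-type livers (log2 fold change 0.72, SE 0.22, edgeR adjusted p = 0.262). Masp1, which activates Masp2, had 225, 155 and 189 CPM in het-labelled livers, against 170.3, 85.9, 144, 130.4 and 103 CPM in wild-type livers (log2 fold change 0.58, SE 0.24, edgeR adjusted p = 0.293). In both genes het-labelled library 2 overlapped wild type.

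Mbl1 and Mbl2 varied more between wild-type livers than between genotypes. Mbl2 ranged 8.51-fold over the 8 livers, the widest of any member, with 339.6, 309.8 and 365 CPM in het-labelled livers, against 219, 355, 80.7, 586 and 687 CPM in wild-type livers. Mbl1 had 208, 223 and 228 CPM in het-labelled livers, against 108, 238, 81.1, 306 and 414 CPM in wild-type livers. In both, the 3 het-labelled livers lay close together between wild-type libraries 1 and 3 below and libraries 4 and 5 above. Log2 fold changes over all 8 livers were −0.06 (SE 0.48; edgeR adjusted p = 0.951) for Mbl1 and −0.19 (SE 0.57; edgeR adjusted p = 0.867) for Mbl2.

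The 2 lectin genes lie on different chromosomes, and their promoters are shown because they moved together over the livers. Capitals mark the longest run that the 2 windows share on the same strand. The windows are chr14:41151206-41151505 for Mbl1 and chr19:30232678-30232977 for Mbl2, both plus strand, GRCm38.p6, from RefSeq.
Mbl1: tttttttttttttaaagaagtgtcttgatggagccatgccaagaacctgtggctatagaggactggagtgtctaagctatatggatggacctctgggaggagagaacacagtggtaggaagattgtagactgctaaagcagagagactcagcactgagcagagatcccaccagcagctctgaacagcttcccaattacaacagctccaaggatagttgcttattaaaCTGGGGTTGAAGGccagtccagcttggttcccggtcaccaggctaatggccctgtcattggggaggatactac
Mbl2: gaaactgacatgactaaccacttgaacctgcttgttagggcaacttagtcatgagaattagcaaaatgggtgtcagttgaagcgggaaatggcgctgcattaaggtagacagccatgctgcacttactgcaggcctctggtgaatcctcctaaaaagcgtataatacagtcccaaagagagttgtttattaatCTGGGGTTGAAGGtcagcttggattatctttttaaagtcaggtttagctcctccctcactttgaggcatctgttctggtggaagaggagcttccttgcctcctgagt
The shared run CTGGGGTTGAAGG is 13 bases long, and it starts 23 bases before the gene start in Mbl1 and 57 before it in Mbl2. On either strand it was found in 3 of 32851 promoter windows, or 0.00913%. The Mbl1 and Mbl2 windows, from which the run was chosen, are 2 of those 3, so this share is not a test of the run.

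C3, where the 3 routes meet, was the most abundant complement message by RPKM. It had 7421, 5980.4 and 5603 CPM in het-labelled livers, against 7090.1, 3754, 6541, 4683 and 3038 CPM in wild-type livers (log2 fold change 0.34, SE 0.31, edgeR adjusted p = 0.578). Wild-type libraries 1 and 3 lay inside the het-labelled range and libraries 2, 4 and 5 below it. Cfb encodes factor B, the protease of the alternative route. It stood at 1231, 984 and 1082 CPM in het-labelled livers, against 838, 848, 702, 926 and 768 CPM in wild-type livers, with no overlap between the groups and a log2 fold change of 0.43 (SE 0.18; edgeR adjusted p = 0.298). Cfp, or properdin, which stabilises the alternative convertase and is made mainly by myeloid cells, had 26.9, 25.1 and 32.4 CPM in het-labelled livers, against 21.8, 28.2, 23.9, 44.6 and 57.7 CPM in wild-type livers and the lowest log2 fold change of the members, −0.33 (SE 0.33; edgeR adjusted p = 0.6). Its 2 highest livers, wild-type libraries 5 and 4, also had the highest summed levels of 8 macrophage markers, at 1611 and 1216 CPM. Those sums were 543 to 669.9 CPM in the het-labelled livers and 459 to 695 CPM in the other wild-type livers. The mean of centred log2 CPM over the same markers ranked the livers otherwise. It was 0.67, −0.16 and 0.70 in het-labelled libraries 1, 2 and 3. Wild-type libraries 4 and 5 had 0.65 and 0.55, and the other wild-type libraries −0.94 to −0.60. The part of macrophage content was not tested.

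The terminal components assemble the pore. C6 had 460.4, 320.3 and 351 CPM in het-labelled livers, against 297, 221, 220.4, 211 and 196 CPM in wild-type livers, with all het-labelled livers above all wild-type livers and a log2 fold change of 0.72 (SE 0.19; edgeR adjusted p = 0.259). DESeq2 gave it an adjusted p of 0.0498, the only member it called. C8a, the alpha chain of C8, had 1199, 644 and 881 CPM in het-labelled livers, against 556, 541, 429, 672 and 471 CPM in wild-type livers, a log2 fold change of 0.77 (SE 0.24; edgeR adjusted p = 0.263); het-labelled library 2 was just below wild-type library 4. Hc, the gene of C5, had 1502, 971 and 1371 CPM in het-labelled livers, against 1255, 994, 926, 1053 and 795 CPM in wild-type livers (log2 fold change 0.35, SE 0.22, edgeR adjusted p = 0.437), and C9, the pore-forming subunit, had 962, 788 and 743 CPM in het-labelled livers, against 674, 880.3, 533, 927 and 690.0 CPM in wild-type livers (log2 fold change 0.17, SE 0.22, edgeR adjusted p = 0.699). Both overlapped between groups.

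The 3 chain genes of C8 did not run in parallel. C8b had 255, 84.4 and 92.5 CPM in het-labelled livers, against 174, 111, 116, 62.1 and 51.7 CPM in wild-type livers. Its highest value was in het-labelled library 1, and its log2 fold change came to 0.48 (SE 0.47; edgeR adjusted p = 0.592), or −0.21 without that library. C8g had 299, 246 and 287 CPM in het-labelled livers, against 147, 322, 100.3, 378 and 573 CPM in wild-type livers (log2 fold change −0.13, SE 0.50, edgeR adjusted p = 0.895). Its order within wild type was nearly opposite to that of C8b: library 5 was the highest for C8g and the lowest for C8b. Only libraries 1 and 3 kept their order, with library 1 above library 3 for both genes. The RPKM ratio of C8g to C8b accordingly ran at 2.13, 5.27 and 5.61 in the het-labelled livers, against 1.53, 5.25, 1.57, 11.03 and 20.1 in the wild-type livers.

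C8a and C8b are neighbours on chromosome 4, with 11132 bases between them, and their promoters are shown because their messages differed in pattern. The windows are chr4:104876349-104876648 (minus) for C8a and chr4:104766067-104766366 (plus) for C8b, GRCm38.p6, from RefSeq, and capitals mark the same motifs as above.
C8a: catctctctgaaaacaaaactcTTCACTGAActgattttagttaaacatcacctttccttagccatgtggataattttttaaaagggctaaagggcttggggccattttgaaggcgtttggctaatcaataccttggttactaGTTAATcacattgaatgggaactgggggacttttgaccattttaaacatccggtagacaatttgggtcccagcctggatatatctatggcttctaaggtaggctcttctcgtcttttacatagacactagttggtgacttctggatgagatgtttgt
C8b: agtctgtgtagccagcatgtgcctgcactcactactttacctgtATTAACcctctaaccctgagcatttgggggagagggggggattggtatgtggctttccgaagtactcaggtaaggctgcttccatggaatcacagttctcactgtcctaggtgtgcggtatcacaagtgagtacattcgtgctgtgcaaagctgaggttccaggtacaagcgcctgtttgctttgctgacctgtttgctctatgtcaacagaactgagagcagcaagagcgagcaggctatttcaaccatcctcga
Each window held 1 match to GTTAAT, 107 bases before the start in C8a and 206 before it in C8b, and the C8a window also held 1 STAT match.

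Of the fluid-phase regulators, none passed at an unadjusted p under 0.05, where 10.3% of all genes were higher and 5.43% lower. C4bp, which speeds decay of the classical convertase, had 854, 767 and 765 CPM in het-labelled livers, against 511, 710.1, 440.4, 728 and 700.2 CPM in wild-type livers. The groups did not overlap, yet wild-type libraries 2, 4 and 5 were near the het-labelled livers and libraries 1 and 3 far below (log2 fold change 0.36, SE 0.22, edgeR adjusted p = 0.411). Cfi, the protease that inactivates C3b and C4b, had 649, 396 and 597 CPM in het-labelled livers, against 432, 464, 351, 494 and 422 CPM in wild-type livers (log2 fold change 0.34, SE 0.21, edgeR adjusted p = 0.424). Vtn, vitronectin, which keeps terminal complexes from inserting into membranes, had 1539, 909.6 and 1188 CPM in het-labelled livers, against 1088, 641, 898, 837 and 570.2 CPM in wild-type livers (log2 fold change 0.59, SE 0.27, edgeR adjusted p = 0.322).

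Groups failed to overlap for 6 members, F11, F5, C1ra, C6, Cfb and C4bp, which is 16.7% of the 36, and every one was higher in the het-labelled livers. Over all genes tested, 7.54% lay wholly above wild type and 2.32% wholly below.

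**Figure D4:**
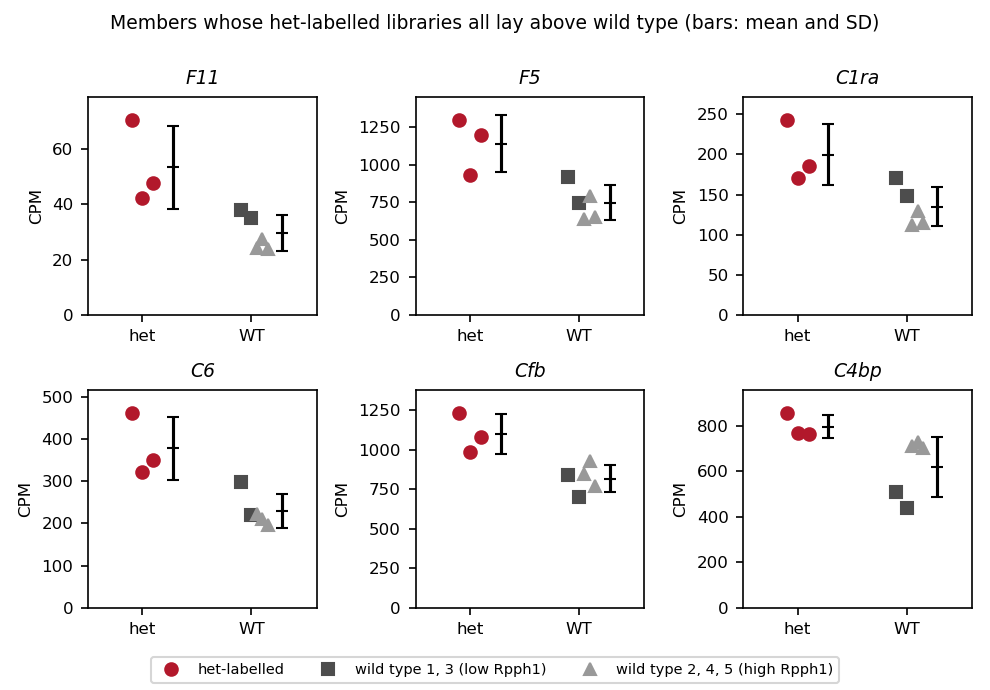
CPM of the 6 members whose groups did not overlap, one point per liver, with het-labelled livers left and wild-type livers right; the bars give mean and SD (n = 3 and n = 5). For F11, F5, C1ra and C6 the nearest wild-type liver is library 1, and for Cfb and C4bp it is library 4.

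Within wild type, the members divided by the Rpph1 split about as often as other genes did. Libraries 1 and 3 were both above libraries 2, 4 and 5 for 10 members and both below for 12, where 31.8% and 31.1% of all genes did so. The sizes were large for a few. Mean CPM in libraries 2, 4 and 5 was 3.62 times that in libraries 1 and 3 for Mbl2, 3.43 for C8g, 3.38 for Mbl1, 2.55 for F13b, 2.15 for F9 and 1.90 for Cfp. At the other end, libraries 1 and 3 had 1.93 times the mean of the others for C8b, 1.78 for C3, 1.503 for Fga, 1.48 for Masp1 and 1.45 for Vtn and for F11.

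Length moved with this split. Over all genes tested, the median log2 ratio of wild-type libraries 1 and 3 to libraries 2, 4 and 5 was −0.66 for 1048 genes with under 1000 bases of exon, −0.25 for 1328 genes of 1000 bases or more but under 1500, and 0.27 for 3059 genes of at least 5000 bases. The 3 members under 1500 bases, Mbl1, Mbl2 and C8g, had the 3 lowest ratios of the 36. Of the 6 members of at least 5000 bases, 5 had a log2 ratio above 0. F9 and F13b, with 2735 and 2378 bases of exon, had ratios of 0.465 and 0.392, and C8b with 2239 bases had the highest ratio. The part of exon length in these values was not tested.

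The comparison with the het-labelled livers depended on which wild-type livers were used. Both versions share the same 3 het-labelled livers. Against wild-type libraries 1 and 3 no member passed in edgeR (smallest adjusted p = 0.0638, for Mbl1), where 0.0956% of all genes were higher and 0.0478% lower. Mbl1 differed by 1.16 on the log2 scale, Mbl2 by 1.11, C8g by 1.0997, F13b by 0.82 and F9 by 0.75, while C3 differed by −0.17 and C8b by −0.07. Against libraries 2, 4 and 5, 7 members were higher at an edgeR adjusted p under 0.05 (19.4%) and 0 lower, where 8.4% of all genes were higher and 10.5% lower. Those were F11 (1.04), C6 (0.80), Masp1 (0.78), F7 (0.76), F10 (0.76), C1ra (0.70) and F5 (0.67). In that comparison Mbl2 differed by −0.73, C8g by −0.66, Mbl1 by −0.59 and F13b by −0.52. All 7, picked for passing against libraries 2, 4 and 5, were above 0 in both, so their shared sign is not a test. Against libraries 1 and 3 they stood at 0.49 for F11, 0.48 for C6, 0.39 for F5, 0.36 for F7, 0.31 for F10, 0.26 for C1ra and 0.21 for Masp1. For F11, Masp1, F7, F10 and C1ra, wild-type libraries 1 and 3 were both above libraries 2, 4 and 5. For C6 and F5 the 2 wild-type parts overlapped. Members that passed in neither, such as C8a (0.82 and 0.64) and Masp2 (0.70 and 0.64), were also above 0 in both.

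**Figure D5:**
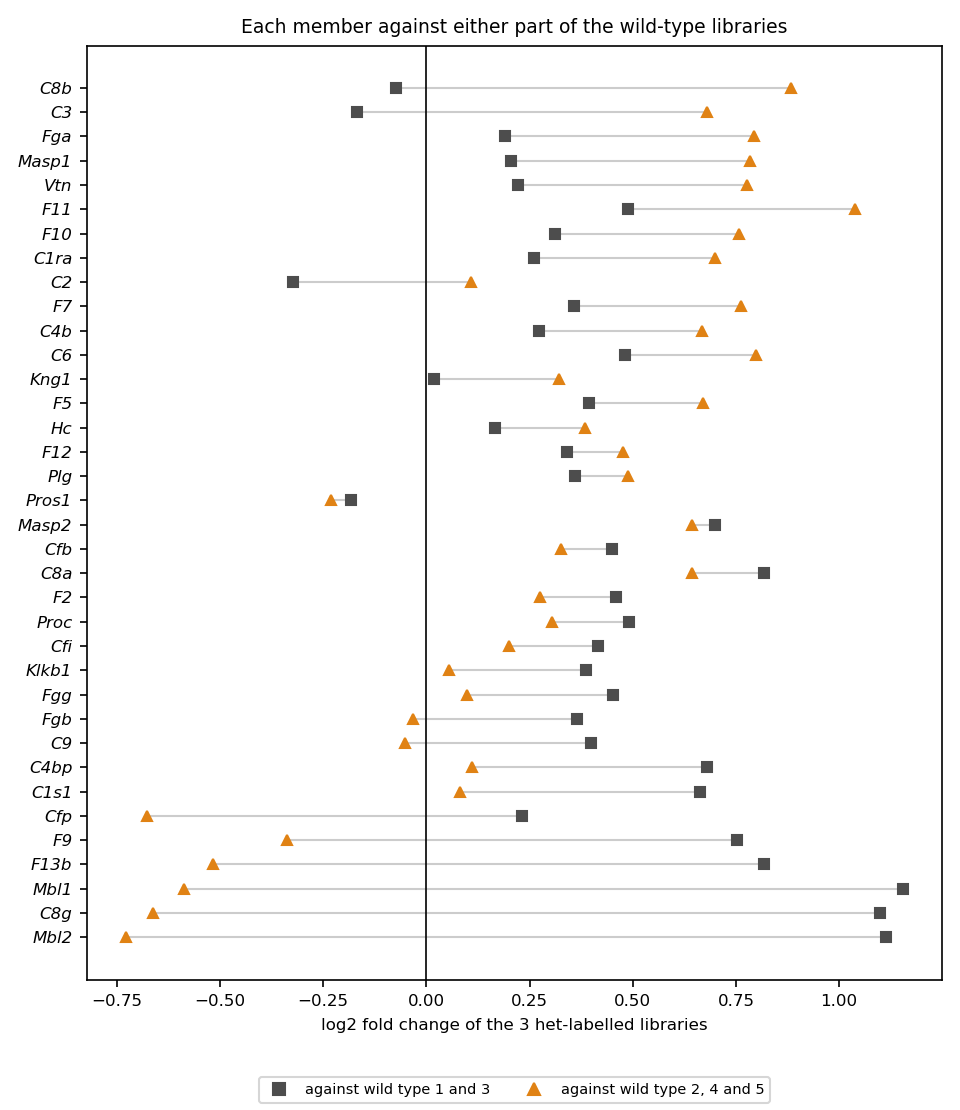
Log2 fold change of the 3 het-labelled livers against wild-type libraries 1 and 3 (dark squares) and against wild-type libraries 2, 4 and 5 (orange triangles) for each member, sorted by the ratio between the 2 wild-type parts. Mbl2, Mbl1, C8g, F13b, F9, Cfp, C9 and Fgb are above 0 against libraries 1 and 3 and below 0 against the others. C2, C3 and C8b change sign the other way, whereas F11 stands at 0.49 and 1.04.

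Promoter windows placed on the deposited gene start were available for 28 of the 36 members. The motif GTTAAT was in 11 of the 28 (39.3%) and in 7.10% of all 32851 windows of that length. The C/EBP motif TTGCNNAA was in 9 (32.1%, all windows 10.8%) and the STAT motif TTCNNNGAA in 8 (28.6%, all windows 8.30%), each on either strand. TATAAA on the gene's strand was in 3 (10.7%, all windows 8.32%), and the HNF4 motif CAAAGTCCA in 0 (all windows 0.475%). F7 and F10 held none of these letters, nor did C6.

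Transcription factor genes of the liver were measured too. Of 13, 5 (38.5%) had an unadjusted p below 0.05 on the higher side and 0 on the lower. Over all genes 10.3% were higher and 5.43% lower by that rule. The median log2 fold change of the 13 was 0.28. Cebpb differed by 0.56 (SE 0.19; edgeR adjusted p = 0.267), Foxa1 by 0.40 and Nr5a2 by 0.41. Of 14 acute-phase genes, 10 had a log2 fold change above 0 and 4 below it, with a median of 0.26. An unadjusted p below 0.05 was reached by 1 (7.14%), on the higher side, where 10.3% of all genes were. It was the serum amyloid gene Saa4, at 399.8, 252 and 329 CPM in het-labelled livers, against 103, 124, 80.2, 290.2 and 185 CPM in wild-type livers (log2 fold change 1.06, SE 0.39, edgeR adjusted p = 0.273). The other serum amyloid A genes listed, Saa1, Saa2 and Saa3, differed by 0.34, 0.15 and 0.35 without passing. Itih4, Orm1 and Hp differed by 0.51, 0.46 and 0.25 without passing.

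The rest of the coagulation system showed no common lean. Of 24 further genes, unadjusted p-values below 0.05 fell to 4 on the higher side (16.7%) and 3 on the lower (12.5%). Over all genes the shares were 10.3% and 5.43%. The median log2 fold change of the 24 was 0.17. Hrg, histidine-rich glycoprotein, a plasma protein of hepatocytes that binds plasminogen and heparin, had 1155, 661 and 1049 CPM in het-labelled livers, against 717, 422, 539, 567 and 439 CPM in wild-type livers (log2 fold change 0.83, SE 0.25, edgeR adjusted p = 0.259). Lower were both plasminogen activator genes. Plau, urokinase, had 6.45, 13.6 and 6.53 CPM in het-labelled livers, against 15.7, 14.9, 13.5, 13.4 and 16.1 CPM in wild-type livers (log2 fold change −0.74, SE 0.26, edgeR adjusted p = 0.268). Plat, tissue plasminogen activator, had 2.30, 5.92 and 3.05 CPM in het-labelled livers, against 8.84, 11.5, 14.5, 5.22 and 4.52 CPM in wild-type livers (log2 fold change −1.25, SE 0.46, edgeR adjusted p = 0.273). Tfpi, the inhibitor of the tissue factor pathway, differed by −0.61 (SE 0.24; edgeR adjusted p = 0.285). The 5 genes for vitamin K carboxylation and factor secretion were all above 0, from 0.21 to 0.43, and 1 of them was higher at an unadjusted p under 0.05.

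The other complement genes lay on both sides. Of 24, 4 on the higher side and 4 on the lower (16.7% each) had an unadjusted p below 0.05. Over all genes 10.3% were higher and 5.43% lower. The median log2 fold change of the 24 was −0.06. The C1q genes, which macrophages express, were on the lower side. C1qa had 58.5, 91.4 and 58.7 CPM in het-labelled livers, against 87.8, 141, 96.1, 125 and 149 CPM in wild-type livers (log2 fold change −0.78, SE 0.24, edgeR adjusted p = 0.259), and C1qc differed by −0.67 (SE 0.23; edgeR adjusted p = 0.268). All 7 receptor genes were below 0, from −0.84 to −0.05, and 1 of them was lower at an unadjusted p under 0.05. The shared sign depended on the wild-type livers used. Against wild-type libraries 1 and 3 the receptor genes had both signs, with Vsig4 at 0.91 and C3ar1 at −0.78. Against libraries 2, 4 and 5 all were below 0. On the higher side, C1rl, a C1r-like protease gene of hepatocytes, had 141, 84.8 and 129 CPM in het-labelled livers, against 77.2, 62.1, 59.5, 88.5 and 73.99 CPM in wild-type livers (log2 fold change 0.71, SE 0.20, edgeR adjusted p = 0.259).

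Cfd, factor D or adipsin, a protease of the alternative route made chiefly by fat tissue, gave the largest difference of the list. It had 860, 36 and 422 counts in the het-labelled libraries and 13, 41, 10, 62 and 29 counts in the wild-type libraries. Het-labelled library 2 lay inside the wild-type range, and the log2 fold change of 3.67 (SE 0.87; edgeR adjusted p = 0.259) rested on libraries 1 and 3. DESeq2 gave an adjusted p of 0.0350.

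Markers of other liver cells passed in some lists and not in others. At an unadjusted p under 0.05, 1 of 8 macrophage markers (12.5%, Cd163) was higher and 0 lower. By that rule 10.3% of all genes were higher and 5.43% lower. Of 5 tested neutrophil markers, 0 passed either way. Of 8 lymphocyte markers, 3 were lower (37.5%), and of 3 tested platelet markers, 1 was lower (33.3%, Pf4). Of 6 endothelial markers, 1 was higher (16.7%, Lyve1). Stellate (7) and bile duct (5) markers gave 0 either way. All 8 lymphocyte markers had a log2 fold change below 0 (median −0.91), as had all 5 bile duct markers (median −0.93). All 6 endothelial markers were above 0 (median 0.28), and the macrophage, neutrophil, platelet and stellate markers had both signs. In het-labelled against wild-type livers, summed levels were 8.91 to 26.2 CPM against 8.33 to 53.7 CPM for neutrophils, 5.16 to 10.3 CPM against 8.07 to 20.1 CPM for lymphocytes, 4.36 to 5.16 CPM against 5.15 to 6.39 CPM for platelets and 321 to 456 CPM against 297 to 366 CPM for endothelium. Markers listed at 0 in single libraries were Ly6g in 1 het-labelled and 3 wild-type libraries, Gp9 in 1 of each group and Cd163 in 1 wild-type library.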

How the data were processed

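Messenger RNA libraries were made from liver RNA with the KAPA mRNA HyperPrep kit, per the labels' protocols. Reads were handled with bcl2fastq 2.18.0.12, STAR and HTSeq on mm10, per the submitters' processing notes, with no strand setting stated there. The authors deposited a table of whole-number counts per gene and a table of RPKM for the same 25078 genes. In the deposited RPKM, counts are scaled for exon length and then by a single factor for each library.

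Counts were tested with edgeR 4.0.16 (TMM, filterByExpr with a minimum count of 10, robust quasi-likelihood, two-sided, Benjamini-Hochberg over all genes tested) in R 4.3.3. DESeq2 1.42.0 and limma 3.58.1 were alternatives. Promoters were matched by symbol to RefSeq's table, and a member's window was kept only if it was placed on the deposited gene start. The windows of all genes were not restricted in this way. No pair of libraries within a group agreed within sampling noise. The labels do not say that the mice came from separate litters, so p-values cover only how these livers vary, which may be partly technical. All 36 members and the copies were to be named, with up to 4 genes of smallest p from each other list. Members, lists and the wild-type split were chosen with earlier results of these data known. One gene that this rule names is not reported here.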

Additional observations from a re-analysis of the deposited data

Results flagged for a closer look

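C6 stood out within the wild-type group. Wild-type library 1 had 297 CPM and the next highest wild-type liver 221 CPM, a gap of 0.751 of the group's whole range, above Dixon's 95% critical value for 5 samples. All 3 het-labelled livers were above both. Chance marks about 1 in 20 groups in this way, and 1 of 54 groups examined was marked. The cause was not tested.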

How the results depend on the processing

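No paired analysis was possible because the labels give the groups no shared replicate numbers. Of the 36 members, 24 kept the sign of their log2 fold change under every alternative run and 12 did not. DESeq2 called 176 genes. Leaving out wild-type libraries 2, 4 and 5 gave 21 genes at an adjusted p under 0.05, and leaving out wild-type libraries 1 and 3 gave 2632. Member counts that follow are at an unadjusted p under 0.05, each beside the share of all genes. Without wild-type libraries 2, 4 and 5, 2 coagulation and 7 complement members were higher, where 16.7% of all genes were. Without wild-type libraries 1 and 3, 6 and 8 were higher, where 18.8% of all genes were, and 2 and 4 were lower, where 18.7% were. Library size alone gave 0 and 2 higher, where 2.96% of all genes were, and a coagulation median of 0.22 beside −0.18 over all genes. Without het-labelled library 1 and wild-type library 3 together, an alternative chosen after seeing the data, 1 and 1 were higher, where 2.93% of all genes were, and the coagulation median was 0.24. Leaving out each library in turn gave 1 to 9 coagulation and 1 to 10 complement members higher, where 3.90 to 13.4% of all genes were, with medians of 0.30 to 0.59 and 0.27 to 0.52. The causes were not tested.

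Reversed log2 fold changes were as follows. Library size alone gave C9 −0.0027, Fgb −0.0173 and F9 −0.0735. RPKM with a pseudocount of 0.1 gave F13b 0.054, C8g 0.097, Mbl2 0.13 and Mbl1 0.16, with a pseudocount of 1 F13b 0.052, C8g 0.0955, Mbl2 0.13 and Mbl1 0.16, and limma-voom F13b 0.055, C8g 0.088, Mbl2 0.11 and Mbl1 0.15. Without wild-type libraries 1 and 3 they were Fgb −0.032, C9 −0.051, F9 −0.34 and C2 0.11. Without wild-type libraries 2, 4 and 5 they were C8b −0.075, C3 −0.17, Cfp 0.23, F13b 0.82, C8g 1.1, Mbl2 1.11 and Mbl1 1.16. Without het-labelled library 1 and wild-type library 3 they were Fgb −0.012, Klkb1 −0.0165, C9 −0.050, F9 −0.15 and C8b −0.17. Leaving out 1 library gave C8b −0.21 (het-labelled 1), F13b 0.0048 and C2 0.089 (het-labelled 2), C2 0.011 (het-labelled 3), F9 −0.051 and C2 0.056 (wild-type 1), F9 −0.16 (wild-type 3), Mbl2 0.013, F13b 0.036 and Mbl1 0.062 (wild-type 4), and Mbl2 0.13, F13b 0.17, C8g 0.23 and Mbl1 0.26 (wild-type 5). Over these 8 fits the values ran from −0.16 to 0.187 for F9, −0.3025 to 0.17 for F13b, −0.323 to 0.26 for Mbl1, −0.493 to 0.13 for Mbl2, −0.21 to 0.762 for C8b, −0.4025 to 0.23 for C8g and −0.16 to 0.089 for C2.

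Every member had at least 394 counts in each library. What limits the precision was not tested.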
